A study of Homo sapiens with 6 samples.

Results

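The genes described here encode enzymes that make, break and rearrange disulfide bonds in the endoplasmic reticulum (ER): the protein disulfide isomerases P4HB, PDIA3, PDIA4, PDIA5, PDIA6 and TXNDC5, the membrane-bound family member TMX1, the oxidases ERO1A and ERO1B, and the peroxiredoxin PRDX4. They were chosen by name, as probe sets annotated with exactly 1 of these 10 symbols. The annotation gave 9 of the 10 a probe set, out of 23752 named genes and 25088 probe sets in all. TXNDC5 was not analysed here.

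The 6 samples, 1 Affymetrix array each, came from SW480, an established cell line from a human colorectal adenocarcinoma. In the TUSC3 group (3 arrays) the cells carried a pTarget plasmid expressing TUSC3, and in the EV group (3 arrays) they carried pTarget without an insert. Both groups were transfected transiently with the liposome reagent Turbofect. Transient transfection leaves a mixture of cells with and without plasmid, the share of transfected cells is unknown here, and each array averages over them, so fewer responding cells and a smaller response per cell cannot be told apart. The labels number 3 replicates in each group and do not say whether they came from separate cultures, so each p reflects the scatter of these arrays alone, part or all of which may be technical.

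Proteins that enter the ER acquire disulfide bonds from protein disulfide isomerases, which carry thioredoxin-like domains with a pair of cysteines. The isomerases hand the electrons on to ERO1 oxidases, which pass them to oxygen and release hydrogen peroxide, and PRDX4 uses that peroxide to oxidise isomerases again. TUSC3 is a subunit of the oligosaccharyltransferase, the ER complex that attaches N-glycans, and its luminal domain also has a thioredoxin-like fold. The comparison of TUSC3 with EV therefore shows whether the array signals of the ER's own redox enzymes differed in cells given the TUSC3 plasmid. The arrays do not measure the TUSC3 protein.

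The transfected gene checks the labels. TUSC3 read 13.13, 13.11 and 13.09 on the TUSC3 arrays and 4.57, 4.33 and 4.63 on the EV arrays. All levels are log2 RMA values and all differences are TUSC3 minus EV on that scale. The groups lay far apart, with a difference of 8.60 (SE 0.091) and an adjusted p of 9.51e-08 (limma, adjusted over all probe sets). An exact two-sided permutation test gave p = 0.1, its lower limit with 3 arrays on each side. Over 10 epithelial and colorectal markers the group means ran between 3.25 and 12.58 in TUSC3 and between 3.34 and 12.49 in EV. EPCAM (12.39 in TUSC3, 12.44 in EV) and the keratin gene KRT19 were at the top of that range, and the stem cell marker LGR5 and CEACAM5 (3.55 in TUSC3, 3.38 in EV) at the bottom. Over 11 measured markers of other cell types the means ran between 2.66, for PTPRC, and 7.04, for LYZ, in TUSC3, and between 2.55 and 7.24 for the same genes in EV. Of these 21 markers 0 passed the threshold, and the groups did not overlap in 3 (14.3%, against 12.2% of all probe sets), MLANA (0.23), DES (-0.17) and CD3D (0.20), given as differences.

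None of the 9 measured enzymes passed the test. At an adjusted p under 0.05, 0 of 9 were higher and 0 of 9 were lower (limma), against 0.00399% of all probe sets, which was TUSC3 alone. Without adjustment, 0 of 9 had p under 0.05, against 6.66% of all probe sets. The 3 TUSC3 arrays overlapped with the 3 EV arrays in all 9 genes, and 12.2% of all probe sets had groups that did not overlap. Among only 9 genes, a count of 0 is close to what these shares would give. The differences ran from -0.15 for ERO1B to 0.040 for P4HB, with 3 above and 6 below 0. Their median was -0.0094, and that of all probe sets was 0.00075. The adjusted p-values lay between 0.804 and 0.992.

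**Figure D1:**
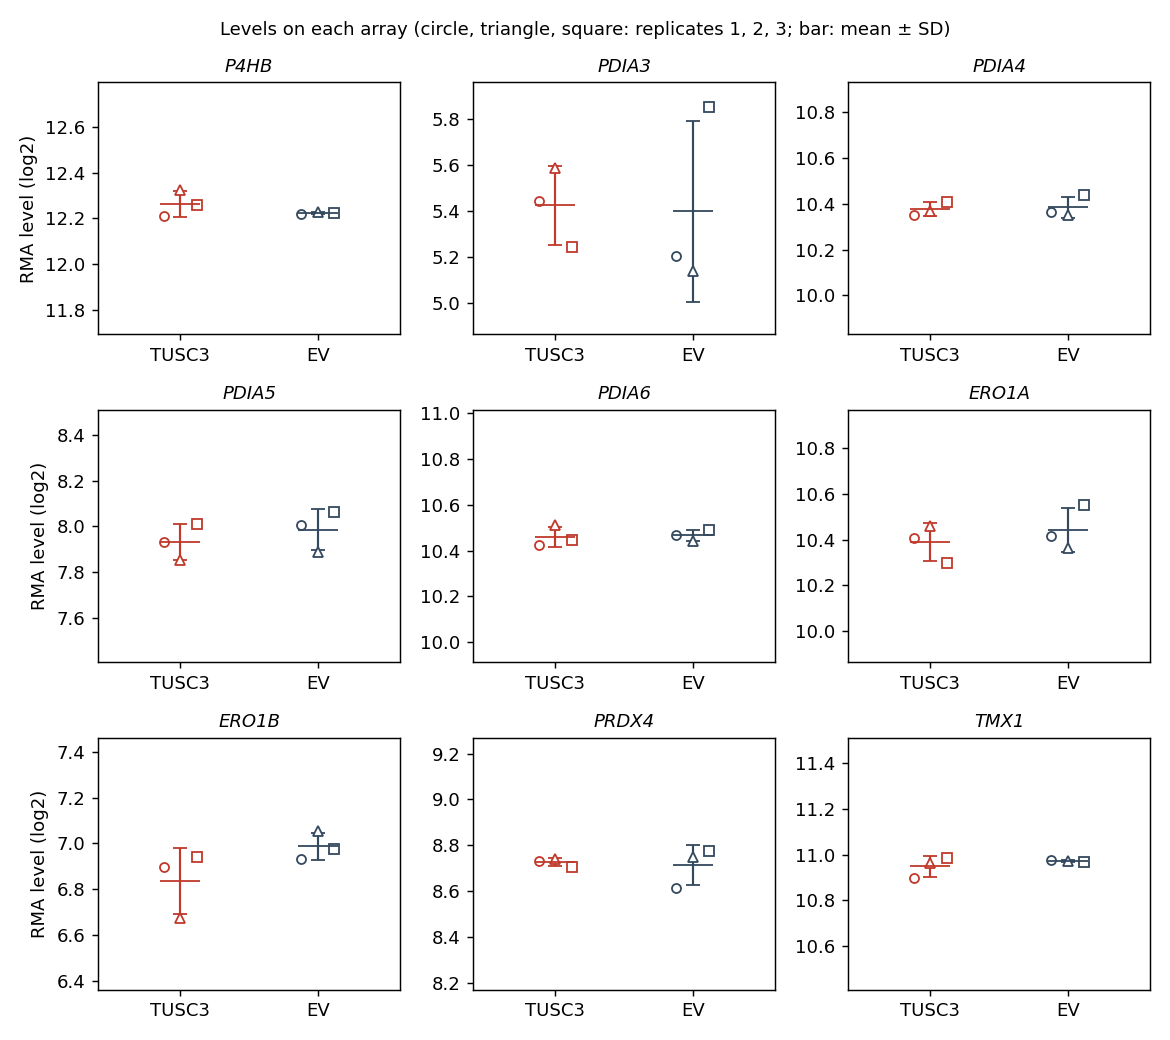
Log2 RMA level (vertical axis) of each of the 9 measured enzymes on the 3 TUSC3 arrays (left, red) and the 3 EV arrays (right, blue); circles, triangles and squares are replicates 1, 2 and 3, and bars are the mean ± SD. Each panel spans the same height on the log2 scale, and the groups overlap in every panel, with the widest scatter in PDIA3.

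The isomerases were tightly measured apart from PDIA3. P4HB, the classical protein disulfide isomerase, which is also the beta subunit of collagen prolyl 4-hydroxylase, read 12.21, 12.32 and 12.26 on the TUSC3 arrays and 12.22, 12.23 and 12.22 on the EV arrays. One TUSC3 array lay below the 3 EV arrays and the other 2 above them. The means were 12.26 ± 0.057 in TUSC3 and 12.22 ± 0.0030 in EV (SD, n = 3 each). The difference of 0.040 had an SE of 0.064, and its 95% interval ran from -0.11 to 0.19 (limma, adjusted p = 0.932).

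PDIA4, an isomerase with an extra active domain, read 10.35, 10.37 and 10.41 on the TUSC3 arrays and 10.36, 10.35 and 10.44 on the EV arrays. Its values interleaved, and the difference was -0.0094 with an interval of -0.16 to 0.14. PDIA5, an isomerase known to act on the stress sensor ATF6, read 7.93, 7.85 and 8.01 on the TUSC3 arrays and 8.004, 7.89 and 8.06 on the EV arrays. Its means were 7.93 ± 0.080 in TUSC3 and 7.98 ± 0.090 in EV (SD, n = 3 each), a difference of -0.053 that was smaller than the spread of either group (interval -0.24 to 0.13).

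PDIA6, an isomerase that also binds the ER stress sensor IRE1, read 10.42, 10.51 and 10.45 on the TUSC3 arrays and 10.47, 10.44 and 10.49 on the EV arrays. The TUSC3 arrays held both its highest and its lowest value. The difference was -0.0056 with an interval of -0.16 to 0.14 (limma, adjusted p = 0.992). TMX1, a transmembrane isomerase that acts preferentially on membrane-anchored clients, read 10.90, 10.96 and 10.99 on the TUSC3 arrays and 10.98, 10.97 and 10.97 on the EV arrays. Its difference was -0.021 with an interval of -0.17 to 0.13.

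PDIA3, known as ERp57, works with calnexin and calreticulin on glycoproteins and so stands closest to the N-glycosylation step. It read 5.44, 5.58 and 5.24 on the TUSC3 arrays and 5.20, 5.14 and 5.85 on the EV arrays. EV replicate 3 was the highest of the 6 and the other 2 EV arrays were the lowest. The means were 5.42 ± 0.17 in TUSC3 and 5.40 ± 0.40 in EV (SD, n = 3 each). They differed by 0.026 (SE 0.20), and the interval of -0.44 to 0.49 was the widest of the 9 genes. Without EV replicate 3 the difference was 0.25 (adjusted p = 0.838), and without EV replicate 2 it was -0.10 (adjusted p = 0.953), so its direction turned with single arrays.

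RefSeq lists a transcribed pseudogene of PDIA3, PDIA3P1, which has a probe set of its own in this table and was looked at after the PDIA3 values were seen. PDIA3P1 read 6.85, 7.04 and 7.04 on the TUSC3 arrays and 6.67, 6.74 and 6.87 on the EV arrays. The groups overlapped, and the difference of 0.22 with an interval of 0.010 to 0.42 did not pass (limma, unadjusted p = 0.0420, adjusted p = 0.746). Its means, 6.98 in TUSC3 and 6.76 in EV, were above those of PDIA3, 5.42 and 5.40. The PDIA3 means were the lowest of the 9 genes and lay under the median of all probe sets on each array, 5.50. Whether probes are shared between the gene and its copy was not tested. The PDIA3 level is uncertain for these reasons, and its low signal and small difference may not describe the PDIA3 transcript.

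The oxidases and the peroxiredoxin did not pass the test either. ERO1A, the widely expressed oxidase, which is also known to be induced by low oxygen, read 10.40, 10.46 and 10.30 on the TUSC3 arrays and 10.41, 10.37 and 10.55 on the EV arrays. The lowest value was TUSC3 replicate 3 and the highest EV replicate 3. The means were 10.39 ± 0.082 in TUSC3 and 10.44 ± 0.095 in EV (SD, n = 3 each), and the difference was -0.054 with an interval of -0.25 to 0.14 (limma, adjusted p = 0.925).

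ERO1B, the paralogue best known from pancreatic islets, gave the largest difference of the 9. It read 6.90, 6.67 and 6.94 on the TUSC3 arrays and 6.93, 7.05 and 6.97 on the EV arrays. TUSC3 replicate 3 overlapped with the lowest EV array, and TUSC3 replicate 2 lay well below the other 5. The means were 6.84 ± 0.14 in TUSC3 and 6.99 ± 0.061 in EV (SD, n = 3 each). ERO1B differed by -0.15 (SE 0.090), its interval ran from -0.36 to 0.063, and it did not pass (limma, unadjusted p = 0.140, adjusted p = 0.804). Without TUSC3 replicate 2 it was -0.068.

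PRDX4 read 8.73, 8.74 and 8.71 on the TUSC3 arrays and 8.62, 8.75 and 8.78 on the EV arrays. The TUSC3 arrays all lay inside the range of the EV arrays. The difference was 0.013 with an interval of -0.15 to 0.18 (limma, adjusted p = 0.983).

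The intervals show how large a change in array signal these data would still allow. For all 9 genes the 95% interval, taken gene by gene, excluded a change of 1.5-fold in either direction, as it did for 90.7% of all probe sets. The interval reached at most 1.41-fold for PDIA3 and 1.29-fold for ERO1B, and it stayed inside 1.2-fold for the other 7 genes. The spread within groups, the residual SD of the fit, was 0.033 for TMX1 at the low end, 0.11 for ERO1B and 0.31 for PDIA3. In 8 of the 9 genes it was below the median of all probe sets, 0.12. No detection call was used, so these bounds refer to array signal and not to transcript amount. They also rest on the scatter of these arrays alone, part or all of which may be technical. Differences between separate cultures could therefore exceed them.

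**Figure D2:**
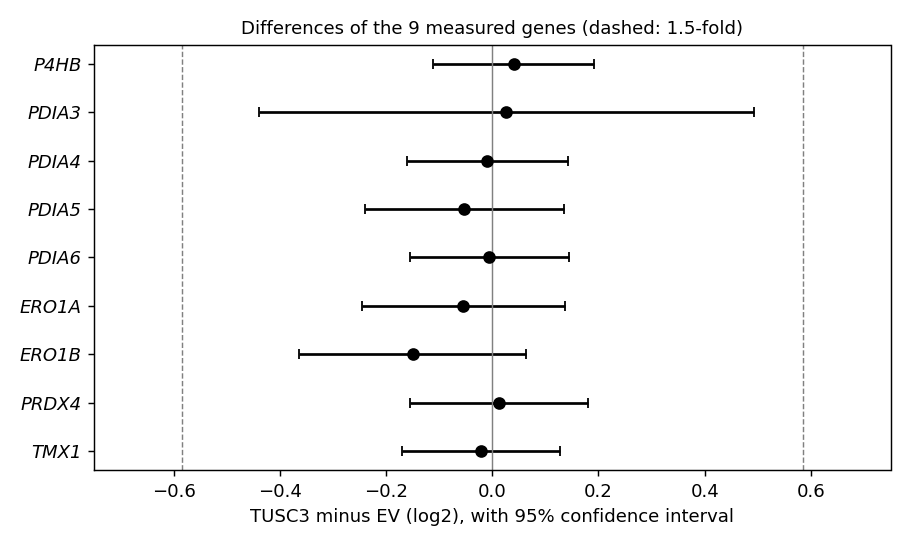
Difference TUSC3 minus EV on the log2 scale (horizontal axis) for the 9 measured enzymes, with 95% confidence intervals from limma; dashed lines mark 1.5-fold in each direction. All intervals include 0 and lie inside the dashed lines, with PDIA3 reaching 0.49 on the higher side and ERO1B -0.36 on the lower.

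Among the arrays, EV replicate 3 gave the highest value in 5 of the 9 genes and lay above the mean of the 6 arrays in 8. TUSC3 replicate 1 gave the lowest value in 4 of 9 and lay above that mean in 2. The median deviation of the 9 genes from their own means was 0.058 on EV replicate 3 and -0.027 on TUSC3 replicate 1. All arrays had the same median over all probe sets, 5.50. TUSC3 replicate 1 held 22765 distinct values, and each of the other 5 arrays held 9648. Its sorted values differed from those of the others by at most 0.00179, while the other 5 arrays shared the same sorted values. The cause was not tested.

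Promoter sequences are shown for the 2 enzymes whose windows hold the full ER stress response element, so that it can be set beside their values. RefSeq windows on GRCh38.p14 were available for 8 of the 9 genes, all but PDIA3, and the 250 bases before each annotated start were searched on both strands, a gene counting once if any of its windows held a match. The ER stress response element (ERSE), through which the transcription factor ATF6 acts together with NF-Y, was searched as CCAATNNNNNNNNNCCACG. It was present in 2 of the 8 genes, PDIA6 and ERO1B, and in 25 of the 27305 genes in the table (0.0916%). The CCAAT box, which is part of the element, was present in 5 of the 8 genes and in 37.0% of all genes in the table. The fixed letters of the ERSE are in capitals, in PDIA6 (chr2:10812786-10813035, minus strand) on the strand shown and in ERO1B (chr1:236281959-236282208, minus strand) as its reverse complement.
PDIA6: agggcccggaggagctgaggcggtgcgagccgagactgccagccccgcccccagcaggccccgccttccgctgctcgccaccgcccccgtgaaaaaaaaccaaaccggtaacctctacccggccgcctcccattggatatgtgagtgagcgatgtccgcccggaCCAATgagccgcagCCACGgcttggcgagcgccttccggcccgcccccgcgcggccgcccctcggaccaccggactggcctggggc
ERO1B: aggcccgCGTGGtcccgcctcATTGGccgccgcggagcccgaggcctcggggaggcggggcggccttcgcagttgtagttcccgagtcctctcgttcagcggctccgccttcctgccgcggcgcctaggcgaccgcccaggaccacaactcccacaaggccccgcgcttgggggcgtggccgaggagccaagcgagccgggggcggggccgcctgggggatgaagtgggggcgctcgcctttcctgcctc

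In PDIA6 the match runs from 86 to 68 bases before the start, and in ERO1B from 243 to 225 bases before it. PDIA6 has a further annotated start, whose window holds no match. Among 15 matched genes of the ER stress list, 4 hold the ERSE, and they are shown for comparison with fixed letters in capitals. These are HSPA5 (the chaperone BiP), XBP1 (a transcription factor of the unfolded protein response), HSP90B1 (the chaperone GRP94, with 2 matches, of which the one nearer the start is printed) and CRELD2. The HSP90B1 and CRELD2 matches are printed as reverse complements of the element.
HSPA5: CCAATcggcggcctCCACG
XBP1: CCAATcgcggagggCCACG
HSP90B1: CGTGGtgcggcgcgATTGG
CRELD2: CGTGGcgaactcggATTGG

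Of the 6 genes with the element, 1 was higher and 5 were lower in the TUSC3 arrays, and none passed the test. PDIA6 and ERO1B differed by the -0.0056 and -0.15 given above. HSPA5 had means of 11.96 in TUSC3 and 11.98 in EV, and its difference of -0.023 had an interval of -0.18 to 0.13. XBP1 differed by -0.0048 (interval -0.20 to 0.19) and HSP90B1 by -0.0013 (interval -0.18 to 0.18). These last 2 were named for their promoters. CRELD2 had means of 8.27 in TUSC3 and 8.06 in EV, and its difference of 0.21 had an interval of -0.091 to 0.51 (limma, adjusted p = 0.807).

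The core of the hypoxia response element, searched as ACGTG, was present in 4 of the 8 genes, PDIA4, PDIA5, ERO1A and PRDX4, and in 21.7% of all genes in the table. A match this short is common and is given as a description. Of the 4, the ERO1A window (chr14:52695559-52695808, minus strand) is shown because this oxidase is known as a hypoxia target from other work. Its match, in capitals, lies from 114 to 110 bases before the start and is the reverse complement of the core.
ERO1A: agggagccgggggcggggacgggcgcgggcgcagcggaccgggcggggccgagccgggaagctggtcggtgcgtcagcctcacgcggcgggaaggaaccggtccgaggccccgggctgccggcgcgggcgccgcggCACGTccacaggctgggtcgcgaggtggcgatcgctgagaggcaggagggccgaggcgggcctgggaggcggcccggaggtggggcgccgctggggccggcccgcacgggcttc

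The other genes of the pathway were followed in 5 lists with 68 measured genes. Of these 0 passed the threshold in either direction, 31 were higher and 37 lower, and the lowest adjusted p was 0.746 (limma). Among all probe sets 50.3% were higher, the share to set beside the counts of each list below. The groups did not overlap in 13 genes, 6 higher and 7 lower, which is 19.1% of the 68, against 12.2% of all probe sets (6.10% higher and 6.09% lower). Without adjustment, 3 genes had p under 0.05, TXNDC16, P4HA1 and GLRX, which is 4.41% of the 68, against 6.66% of all probe sets.

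**Figure D3:**
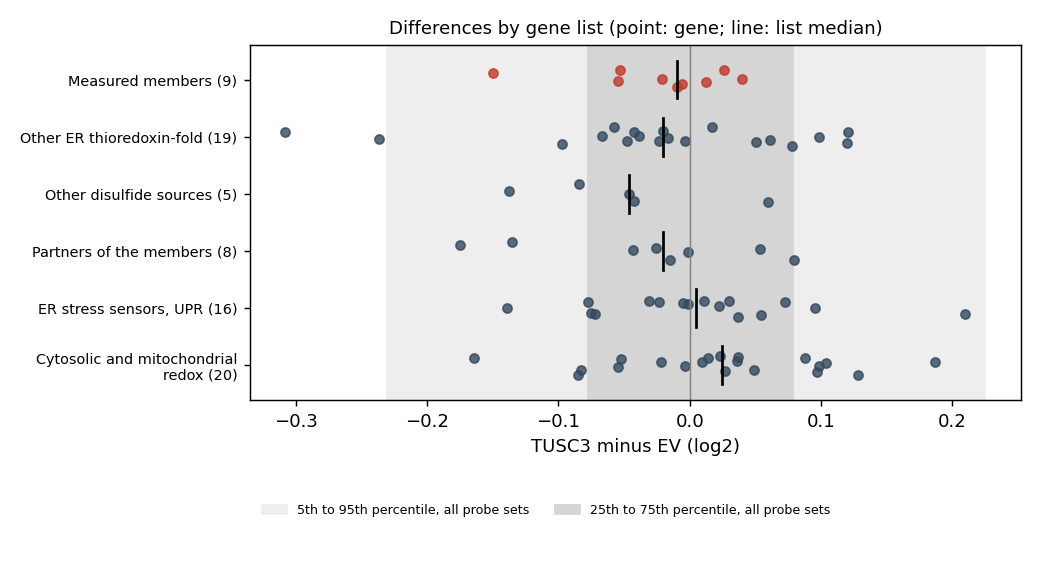
Difference TUSC3 minus EV on the log2 scale (horizontal axis) for the 9 measured enzymes (red) and 5 lists of related genes (blue), 1 point per gene, with numbers of genes in brackets and list medians as black lines; the grey bands hold the central part of all probe sets. The 9 enzymes lie between -0.15 and 0.040, and 2 genes of the other ER thioredoxin-fold list lie below the 5th percentile of all probe sets, -0.23.

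Other thioredoxin-fold proteins of the ER had 7 of 19 genes higher and 12 lower, with a median difference of -0.020. The groups did not overlap in 4 of the 19, 0 higher and 4 lower, against 6.10% and 6.09% of all probe sets. TXNDC16 had means of 5.71 in TUSC3 and 5.94 in EV with no overlap, and differed by -0.24 (interval -0.45 to -0.025; limma, unadjusted p = 0.0331, adjusted p = 0.746). SELENOM, an ER selenoprotein, had means of 5.20 in TUSC3 and 5.51 in EV with no overlap, and its difference of -0.31 had an interval of -0.62 to 0.0026. ERP27, a family member without active-site cysteines, had a low signal, 3.10 in TUSC3 and 2.98 in EV, and differed by 0.12 (interval -0.070 to 0.31). ERP44, which retains ERO1 oxidases in the early secretory pathway, had means of 10.44 in TUSC3 and 10.48 in EV and a difference of -0.042 (interval -0.23 to 0.15). AGR2, the isomerase of mucin-producing intestinal cells, had a low signal, 2.87 in TUSC3 and 2.89 in EV, and a difference of -0.023.

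Other sources of disulfides had 1 of 5 genes higher and 4 lower. QSOX1, a sulfhydryl oxidase of the Golgi and the extracellular space, differed by -0.042 with an interval of -0.20 to 0.12, and its paralogue QSOX2 by -0.084. VKORC1L1, a vitamin K epoxide reductase that can feed disulfides to isomerases, had means of 10.31 in TUSC3 and 10.25 in EV with no overlap, and a difference of 0.060 (interval -0.088 to 0.21). NOX4, an oxidase that makes hydrogen peroxide, had a low signal, 3.74 in TUSC3 and 3.87 in EV, and differed by -0.14 (interval -0.39 to 0.11).

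Partners of the enzymes had 2 of 8 genes higher and 6 lower. P4HA1, the catalytic subunit that joins P4HB in collagen prolyl 4-hydroxylase and is itself known as a hypoxia target, had means of 9.06 ± 0.027 in TUSC3 and 9.24 ± 0.083 in EV (SD, n = 3 each). Its groups did not overlap, and the difference was -0.18 with an interval of -0.34 to -0.0081 (limma, unadjusted p = 0.0423, adjusted p = 0.746). Its sister subunit P4HA3 had a low signal, 3.89 in TUSC3 and 4.02 in EV, and differed by -0.14 (interval -0.38 to 0.11). CALR, the lectin chaperone calreticulin that recruits PDIA3, differed by -0.043 (interval -0.19 to 0.11), and PPIB, an ER prolyl isomerase, by 0.080 with no overlap between groups.

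ER stress sensors and genes of the unfolded protein response had 8 of 16 genes higher and 8 lower, with a median of 0.0047. EIF2AK3, the sensor kinase PERK, had means of 8.50 in TUSC3 and 8.64 in EV with no overlap, and a difference of -0.14 (interval -0.30 to 0.022, adjusted p = 0.767, limma). ATF4, the transcription factor downstream of PERK, differed by 0.095. In the cytosol and mitochondria, 13 of 20 thioredoxin, glutaredoxin and peroxiredoxin genes were higher and 7 lower, with a median of 0.025. GLRX, cytosolic glutaredoxin, had means of 8.71 in TUSC3 and 8.52 in EV with no overlap, and it differed by 0.19 (interval 0.0046 to 0.37; limma, unadjusted p = 0.0458, adjusted p = 0.746). TXNRD1, the thioredoxin reductase of the cytosol, differed by 0.099 and TXNDC9, a regulator of the chaperonin CCT, by -0.16, both with no overlap.

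MAGT1, the paralogue that takes the place of TUSC3 in the oligosaccharyltransferase and shares its thioredoxin-like fold, read 9.89, 9.97 and 10.03 on the TUSC3 arrays and 9.93, 9.97 and 9.90 on the EV arrays. Its difference was 0.029 with an interval of -0.13 to 0.19.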

How the data were processed

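The authors deposited a log2 level for each probe set on each array, made with RMA per the submitters' processing notes; the sources used here do not give its version, the array model or the probe set definition. RMA gives all arrays nearly the same distribution (sorted values differed by at most 0.00179), so a shift of most genes in 1 direction cannot be seen. Symbols came from the platform annotation (23752 probe sets with 1 symbol, 0 with several, 1336 unnamed). Values were tested as deposited, without a filter, in R 4.3.3 by limma 3.58.1 (functions lmFit and eBayes, two-sided), with Benjamini-Hochberg adjustment over all 25088 probe sets and a threshold of 0.05. The procedure was tested on simulated data with independent noise on each array and added changes of 1.5-fold or more. That test cannot show how separate cultures would vary or whether smaller changes would be found. Precision is limited by the number of arrays. The text names all measured enzymes, TUSC3, MAGT1, 6 well known partners, and the 3 genes with the smallest p of each pathway list. The smallest p was the planned rule for the markers too, but the markers without overlap are named in its place. Genes outside these rules are PDIA3P1, XBP1, HSP90B1, and the markers EPCAM, KRT19, LGR5, CEACAM5, PTPRC and LYZ, chosen after their values were seen. The genes and lists were chosen with earlier results of these data known. Of the pathway lists, PRDX5 was not analysed here. Alternatives were another quantile normalization, median centring, leaving out the dimmest 30% of probe sets, a trended and robust prior, array weights, the replicate number as a block, named probe sets alone, a minimum change of 1.5-fold, and each array left out in turn.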

Additional observations from a re-analysis of the deposited data

How the results depend on the processing

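The count of enzymes past the threshold was 0 in all 14 alternatives, and their median difference stayed between -0.036 and 0.0064. The count of pathway genes past the threshold was 0 in the 13 alternatives run on it, and TUSC3 itself passed in each of these with differences of 8.51 to 8.66. The count over all probe sets was 1 in 13 alternatives and 2 with the trended and robust prior; the cause was not tested. Of 117 values of single enzymes under the alternatives, 0 passed and 107 kept their direction. The other 10 changed sign, all with 1 array left out, over ranges of -0.10 to 0.25 for PDIA3, -0.026 to 0.017 for PDIA4, -0.030 to 0.012 for PDIA6, -0.036 to 0.044 for PRDX4 and -0.040 to 0.0042 for TMX1. The other 4 kept their direction, but leaving out 1 array moved each by over 1.5 times, with ranges of 0.010 to 0.067 for P4HB, -0.10 to -0.013 for PDIA5, -0.093 to -0.0014 for ERO1A and -0.20 to -0.068 for ERO1B. Same-numbered replicates did not deviate together (correlations -0.014, 0.040 and -0.013), and not every array correlated best with its own number; the replicate block gave 0 enzymes and 1 probe set.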
